A study of Mus musculus with 20 samples.

Results

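Genes of B cells and plasma cells were followed in mouse caecum tumours grown from colorectal tumour organoids, with and without galunisertib, which blocks the kinase of the TGF-beta type I receptor. The group was given as 8 genes: Ms4a1, Cd79a, Cd79b, Pax5, Pou2af1, Mzb1, Jchain and Cxcl13. Each was read from the probe set annotated to that gene alone, and where a gene had more than 1 such probe set the one with the highest mean was taken. This gave 7 genes of the 17097 genes with a named probe set; Mzb1 was not analysed here. The rule for the genes uses no measured value other than that highest mean, though the list was drawn up with earlier results of these data known.

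The 20 tumours came from C57BL/6J mice, with 1 array per tumour, and each of 5 organoid (MTO) lines gave 2 tumours of control mice and 2 of treated mice. MTO68 and MTO93 were parental lines of genotype LAKTP, MTO140 was an LAKTP line of type LiM, MTO54 was parental LAKP and MTO207 parental LAKT, and the labels do not spell out these letters. Treated mice received 10 mg of galunisertib by gavage 2 times per day from day 11 until sacrifice in week 5, and what control mice received is not given in the sources used here. MTO140 organoids were injected under the serosa of the caecum, whereas the other lines were first grown under the skin and pieces were then transplanted onto the caecum tip. Each line is a single organoid line, so a difference between lines is not shown to belong to its genotype.

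B cells recognise antigen through a membrane immunoglobulin that signals through the paired chains CD79A and CD79B. They are made under the transcription factor PAX5, and MS4A1 (CD20) is a surface protein of mature B cells. Activated B cells can become plasma cells, which secrete antibody; in the gut much of it is IgA, joined by the J chain into polymers that the epithelium carries to the lumen. CXCL13 is the chemokine that draws B cells carrying its receptor CXCR5 into follicles, and POU2AF1 is a coactivator that B cells need for germinal centres.

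Whole tumour fragments were measured, so values describe tumour and host cells together, and fewer cells of a type cannot be told apart from less RNA per cell. All levels are deposited log2 values of RMA, a method that corrects, normalizes and summarises the probes of an array, and a level of 1 gene cannot be set against that of another. Medians of the arrays ranged from 4.93 to 5.12, and their SDs from 1.46 to 1.83. The mean over 11 epithelial markers ranged from 9.06 to 10.6 over the 20 tumours, and the mean over 23 other B cell genes from 4.87 to 5.43. Because the 4 tumours of a line shared a strip of arrays, effects of strip and line cannot be told apart, whereas each strip held both treatments. The design text calls both tumours of a group biological replicates, and with 2 per group precision was limited.

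All 7 genes passed the filter on dim genes, which asked for a level above 4.16, which is the 25th percentile of the pooled array values, on at least 2 arrays. Cd79a, Cd79b, Jchain and Cxcl13 lay above that level in 20 of 20 tumours, Pax5 in 19 and Ms4a1 in 14. Pou2af1 lay above it in 3 tumours, all of them treated, so its level elsewhere was near background. It passed the filter through treated tumours of MTO68 and MTO93 alone, so its values are given as a description and no call of it between treatments or lines is used. Counts and medians are also given over the other 6 genes.

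**Figure D1:**
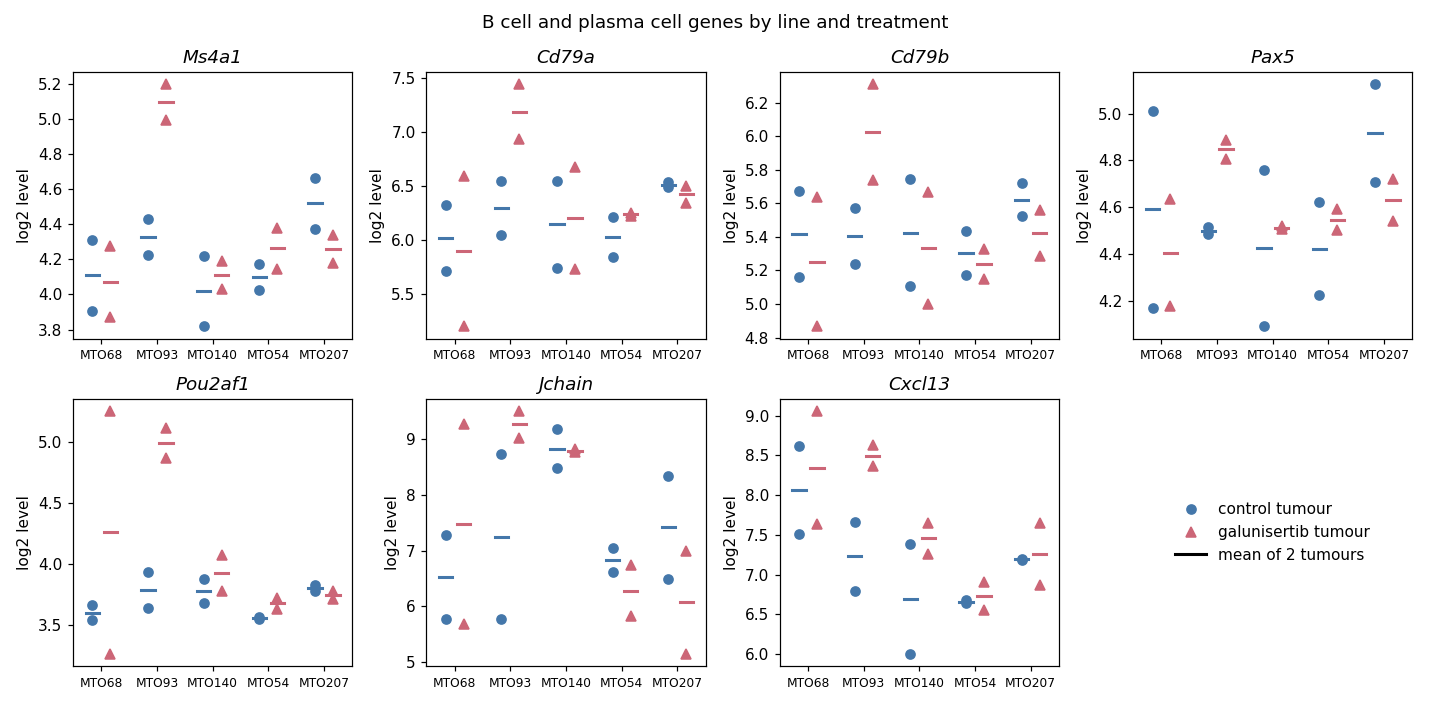
Log2 level of each of the 7 genes (vertical axis, own scale per panel) in every tumour, by organoid line (horizontal axis). Circles are control tumours, triangles are galunisertib tumours and bars are the means of 2 tumours; in MTO93 both triangles lie above both circles in all 7 panels.

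The first comparison asked whether the genes stood at different levels in the 5 lines. Cxcl13 and Ms4a1 differed between lines, and the other genes did not pass the test. Cxcl13 had its highest mean in MTO68 and its lowest in MTO54. Ms4a1 had its highest mean in MTO93 and its lowest in MTO140. Thus 2 of 7 genes passed limma's F test between lines (threshold 0.05 after adjustment), against 55.4% of all 15556 genes tested (8611 genes).

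Cxcl13, on chr5:95956939-95961068 of GRCm38, averaged 8.20 ± 0.75 in MTO68, 7.86 ± 0.82 in MTO93, 7.23 ± 0.32 in MTO207, 7.08 ± 0.73 in MTO140 and 6.70 ± 0.15 in MTO54 (SD, n = 4 tumours each; limma F = 5.61, adjusted p = 0.018). The 4 tumours of MTO54 were close together and all lay below the 4 tumours of MTO68. The difference of MTO68 and MTO54 was 1.51 on the log2 scale (SE 0.36, limma adjusted p = 0.012), in a comparison that called 17% of genes. The difference of MTO68 and MTO207 was 0.98 (SE 0.36, limma adjusted p = 0.040), where 48.2% of genes passed. No 2 lines next to each other in this order differed past the threshold.

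Ms4a1, on chr19:11249679-11266149, averaged 4.71 ± 0.46 in MTO93, 4.39 ± 0.20 in MTO207, 4.18 ± 0.15 in MTO54, 4.09 ± 0.23 in MTO68 and 4.06 ± 0.18 in MTO140 (SD, n = 4 each; limma F = 8.54, adjusted p = 0.006). The high mean of MTO93 rested on its treated tumours, at 5.20 and 5.00, while its control tumours were at 4.23 and 4.43 and lay within the range of the other lines. The difference of MTO68 and MTO93 was -0.62 (SE 0.13, limma adjusted p = 0.005), where 33.4% of genes passed. The difference of MTO93 and MTO140 was 0.65 (SE 0.13, limma adjusted p = 0.012), where 27.8% passed. Neighbouring lines in the order did not differ past the threshold. In the 10 control tumours alone neither gene passed the test between lines, with limma adjusted p = 0.189 for Cxcl13 and 0.186 for Ms4a1.

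Jchain, on chr5:88519809-88527897, averaged 8.81 ± 0.29 in MTO140, 8.25 ± 1.69 in MTO93, 7.002 ± 1.68 in MTO68, 6.75 ± 1.31 in MTO207 and 6.56 ± 0.53 in MTO54 (SD, n = 4 each). The 4 tumours of MTO140 lay between 8.47 and 9.18, a narrow range beside those of MTO68, MTO93 and MTO207. The F test over lines gave limma adjusted p = 0.063. The pair MTO140 and MTO207 differed by 2.06 (SE 0.76, limma adjusted p = 0.039) in a comparison that called 49.7% of genes. With limma's array weights the F test passed (adjusted p = 0.015), and so it did for Cd79a (0.043). That fit called 12346 of 15556 genes, against 8611 in the main fit. The limma F of Jchain was 3.39 in the main fit and 5.27 without MTO93 control tumour 1. It was 4.87 without MTO68 galunisertib tumour 1 and 6.44 without tumour 2. Each of these fits left 1 tumour in a group.

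The means of the remaining 4 genes by line were as follows. Cd79a, on chr7:24897497-24901858, ranged from 5.95 ± 0.63 in MTO68 to 6.74 ± 0.59 in MTO93, and Cd79b, on chr11:106311341-106314562, from 5.27 ± 0.14 in MTO54 to 5.72 ± 0.45 in MTO93 (SD, n = 4 each). Pax5, on chr4:44524748-44710694, ranged from 4.47 ± 0.28 in MTO140 to 4.77 ± 0.25 in MTO207. Pou2af1, on chr9:51213690-51240079, ranged from 3.62 ± 0.08 in MTO54 to 4.39 ± 0.71 in MTO93. The limma adjusted p values of Cd79a, Cd79b and Pax5 for a difference between lines were 0.160, 0.352 and 0.443. The limma F of Cd79a was 2.18 in the main fit and 4.99 without MTO68 galunisertib tumour 2, which left 1 tumour in that group.

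The main comparison set treated against control tumours within the lines. Over the 5 lines all 7 genes had higher means in treated tumours, and 0 of 7 passed the test. The median difference was 0.19 on the log2 scale over the 7 and 0.17 over the 6 without Pou2af1, beside 0.00 for all genes, of which 50.3% had a higher mean. No gene on the array passed this comparison (0 of 15556, 0% called by limma, with 1238 at an unadjusted p under 0.05).

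Cxcl13 had the largest difference over the 5 lines, 0.49 (SE 0.23, limma adjusted p = 0.625), and was the only one of the 7 with a higher treated mean in 5 of 5 lines. In 3 of those lines the direction rested on single tumours. The Cxcl13 difference was -0.27 in MTO68 without control tumour 2 and -0.43 without galunisertib tumour 2, -0.10 in MTO54 without galunisertib tumour 1 and -0.32 in MTO207 without galunisertib tumour 1. Pou2af1 differed by 0.41, with values mostly near background. Jchain differed by 0.21 (SE 0.51), Cd79a by 0.19 (SE 0.19) and Ms4a1 by 0.15 (SE 0.11). The estimates were 0.02 for Cd79b (SE 0.14) and 0.02 for Pax5 (SE 0.12), with higher treated means in 1 and 3 of the lines. The limma adjusted p values of these 5 genes lay between 0.721 and 0.961. Without the line MTO93 the estimates fell to -0.01 for Ms4a1, -0.13 for Cd79b, -0.07 for Pax5 and -0.25 for Jchain, and to 0.01 for Cd79a, 0.30 for Cxcl13 and 0.22 for Pou2af1. The Jchain estimate over the 5 lines was -0.13 without MTO93 control tumour 1 and -0.10 without MTO68 galunisertib tumour 2.

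**Figure D2:**
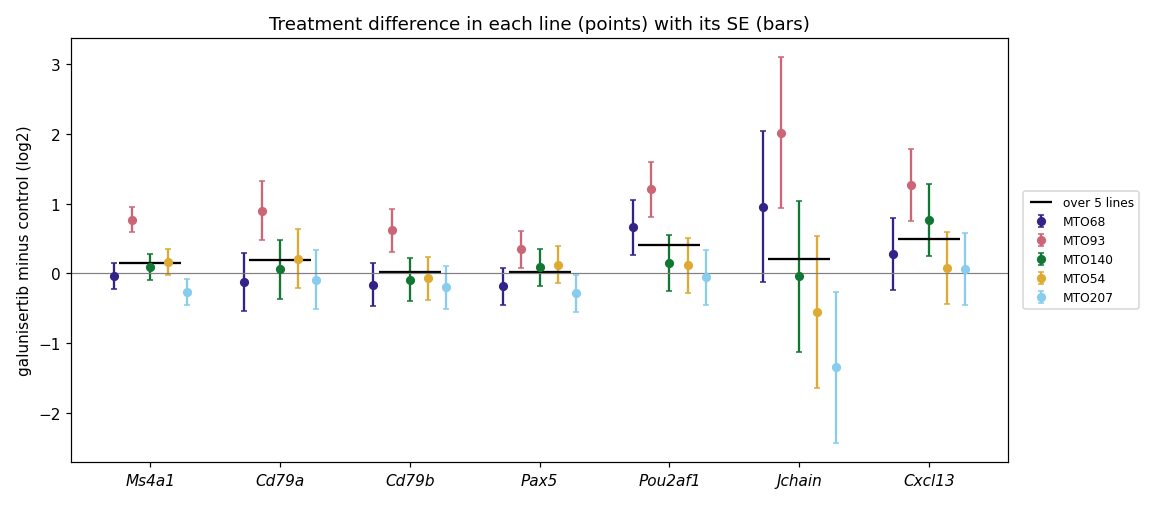
Treated minus control difference of each gene in each line on the log2 scale (points, with the SE of the model as bars) and over the 5 lines (black bars). The MTO93 point is the highest of the 5 lines for each of the 7 genes, and the Jchain points run from -1.35 in MTO207 to 2.01 in MTO93.

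In MTO93 the 7 genes stood higher in the treated tumours, with a median difference of 0.89, or 0.83 over the 6 without Pou2af1, beside 0.01 for all genes. Both treated tumours lay above both control tumours for 7 of 7 genes, against 18.1% of all genes (2815 of 15556), a count added after the values had been seen. Without Pou2af1 the count was 6 of 6. The 7 genes are not independent observations, since they share the same 4 tumours. None of the 7 passed limma's test in this line, which called 0% of genes (0 of 15556, with 169 at an unadjusted p under 0.05 and a smallest adjusted p of 1.00).

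Among the B cell genes of MTO93, Ms4a1 was at 4.23 and 4.43 in control and 5.20 and 5.00 in treated tumours, and differed by 0.77 (SE 0.18). Cd79a was at 6.04 and 6.54 in control and 7.45 and 6.93 in treated tumours and differed by 0.89 (SE 0.42). Cd79b was at 5.24 and 5.57 against 6.31 and 5.74, a difference of 0.62 (SE 0.31). These 3 genes have the first treated tumour as the higher one. Pax5, at 4.51 and 4.49 against 4.89 and 4.81, differed by 0.35 (SE 0.26), the smallest step of the 7. Pou2af1 was at 3.64 and 3.94 in control tumours, below the background level, and at 5.12 and 4.87 in treated tumours. With the control level set at 4.16, the mean of the 2 treated tumours was at least 1.78-fold higher, given as a description.

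Jchain in MTO93 was at 5.77 and 8.73 in control and 9.50 and 9.02 in treated tumours, and differed by 2.01 (SE 1.08). The groups did not overlap, but the second control tumour stood far closer to the treated tumours than to the first. Without control tumour 1 the difference was 0.53, and without control tumour 2 it was 3.49. Cxcl13 was at 6.79 and 7.67 in control and 8.36 and 8.63 in treated tumours, and differed by 1.27 (SE 0.52), with no overlap. Its second probe set, which is dimmer, gave 0.39 in this line, while the second probe set of Ms4a1 gave 0.76 beside 0.77.

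Ms4a1 passed in MTO93 when limma weighted the arrays (0.75, adjusted p = 0.018), and no other gene of the 6 passed there under any alternative.

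In MTO68 the genes did not move as a group. Of the 7, 3 had higher treated means, the median difference was -0.04 beside 0.04 for all genes, and 0 of 7 had both treated above both control tumours, against 31.2% of all genes. Without Pou2af1, 2 of 6 had higher treated means and the median was -0.08. The 2 treated tumours differed widely. Jchain was at 5.69 and 9.27 in them and at 7.28 and 5.77 in control tumours, so the treated values lay on either side of the controls. Pou2af1 was at 3.27 and 5.26 in treated and 3.54 and 3.66 in control tumours, and Cxcl13 at 7.63 and 9.05 against 8.62 and 7.52. The second treated tumour was the highest of all 20 for Pou2af1 and Cxcl13. Without galunisertib tumour 1 the Jchain difference was 2.75, and without tumour 2 it was -0.84. Limma called 2.01% of genes in this line and none of the 7. With arrays weighted by limma the MTO68 estimates turned above 0 for Cd79a (0.59), Cd79b (0.30), Ms4a1 (0.27) and Pax5 (0.32), from -0.12, -0.16, -0.04 and -0.18, and none passed.

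MTO140, the LiM line, gave 5 of 7 higher treated means with a median of 0.09, and 0 of 7 genes had both treated above both control tumours, against 8.32% of all genes. Without Pou2af1, 4 of 6 had higher treated means and the median was 0.07. Cxcl13 had the largest difference there, 0.76 (SE 0.52), from 6.01 and 7.38 in control to 7.65 and 7.26 in treated tumours, whose ranges overlapped. It was 0.08 without control tumour 1 and 1.45 without control tumour 2. Jchain differed by -0.04 (SE 1.08). Limma called 0.00643% of genes in this line (1 of 15556), none of them among the 7.

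In the LAKP line MTO54 the median was 0.12, and both treated tumours lay above both control tumours for Cd79a and Pou2af1, 2 of 7 genes against 17.8% of all genes. Without Pou2af1 the median was 0.10 and the count was 1 of 6. Cd79a was at 5.84 and 6.21 in control and 6.22 and 6.25 in treated tumours, a step of 0.21 (SE 0.42) in which a control and a treated tumour nearly touched, and which was 0.03 without control tumour 1. Pou2af1 stayed below 4.16 in all 4 tumours. In the LAKT line MTO207 the median was -0.20, and 1 of 7 genes had a higher treated mean, Cxcl13 at 0.06 (SE 0.52). Without Pou2af1 the median was -0.23, and 1 of 6 had a higher treated mean. No gene there had both treated above both control tumours, against 26.3% of all genes, and Ms4a1 had both below, as did 31.6% of genes. Jchain in MTO207 was at 6.50 and 8.34 in control and 6.99 and 5.15 in treated tumours, and differed by -1.35 (SE 1.08) with overlapping groups. That difference was -2.26 without control tumour 1 or galunisertib tumour 1 and -0.43 without the other tumour of either group. Limma called 0% of genes in MTO54 (444 at an unadjusted p under 0.05) and 0% in MTO207 (1172).

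Averaged over the 3 LAKTP lines, the differences were 0.98 for Jchain (SE 0.62), 0.77 for Cxcl13 (SE 0.30), 0.28 for Cd79a (SE 0.24), 0.27 for Ms4a1 (SE 0.11), 0.12 for Cd79b (SE 0.18) and 0.08 for Pax5 (SE 0.15). None of these 6 passed, with limma adjusted p values from 0.439 to 0.856, in a comparison that called 0.00643% of genes. Single tumours moved the averages: without MTO68 galunisertib tumour 2 they were 0.38 for Jchain, 0.04 for Cd79a and -0.01 for Cd79b, and without tumour 1 they were 1.57, 0.51 and 0.25. Jchain was 0.48 without MTO93 control tumour 1 and 1.47 without control tumour 2. Whether the lines differed in their response was tested with limma's F test over the 5 differences. None of the 7 passed it, and it called 0.0643% of genes (10 of 15556). Ms4a1 came nearest with F = 4.33 (limma adjusted p = 0.563). Its F was 5.70 without MTO68 control tumour 1, in a fit that left 1 tumour in that group. The higher levels in treated MTO93 tumours are therefore not shown to be particular to that line.

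Seen by tumour, several of the 7 genes had high values on the same arrays. MTO93 galunisertib tumour 1 was among the 3 highest of 20 for 6 of the 7 genes and the highest for 4. MTO93 galunisertib tumour 2 was among the 3 highest for 5 genes, and MTO68 galunisertib tumour 2 for 3. Pou2af1, which passed the filter through these tumours alone, is counted in each of them. The share of all genes with such ranks was not computed, so the counts are a description.

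The 2 chains of the B cell receptor signalling unit followed each other across tumours. With values centred on the line mean, Cd79a and Cd79b correlated with r = 0.95 and rho = 0.92 over 20 tumours (permutation within lines, two-sided, adjusted p = 0.00024 and 0.00045 over 3 pairs). Without the 2 tumours farthest from the median, r was 0.92. Line by line, r was 0.47 in MTO54 and 0.97 or 0.98 in each of the other lines (n = 4 tumours each). All tumours share the array platform, and replicates of a line share a strip.

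Neither the J chain gene nor the chemokine gene followed Cd79b as closely. Cd79b and Jchain gave r = 0.52 and rho = 0.37 (permutation adjusted p = 0.085 and 0.165), r = 0.33 without the 2 farthest tumours, and within lines 0.43, 0.82, -0.72, 0.29 and 0.99 in the order MTO68, MTO93, MTO140, MTO54 and MTO207. Cd79b and Cxcl13 gave r = 0.53 and rho = 0.53 (permutation adjusted p = 0.085 and 0.104), r = 0.39 without the 2 farthest, and within lines 0.25, 0.77, 0.60, -0.53 and 0.54. In MTO140 Jchain was high at both high and low Cd79b, as the plot of gene pairs shows. As a description of all 21 pairs of the 7 genes, line-centred r ranged from 0.18 to 0.95.

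**Figure D3:**
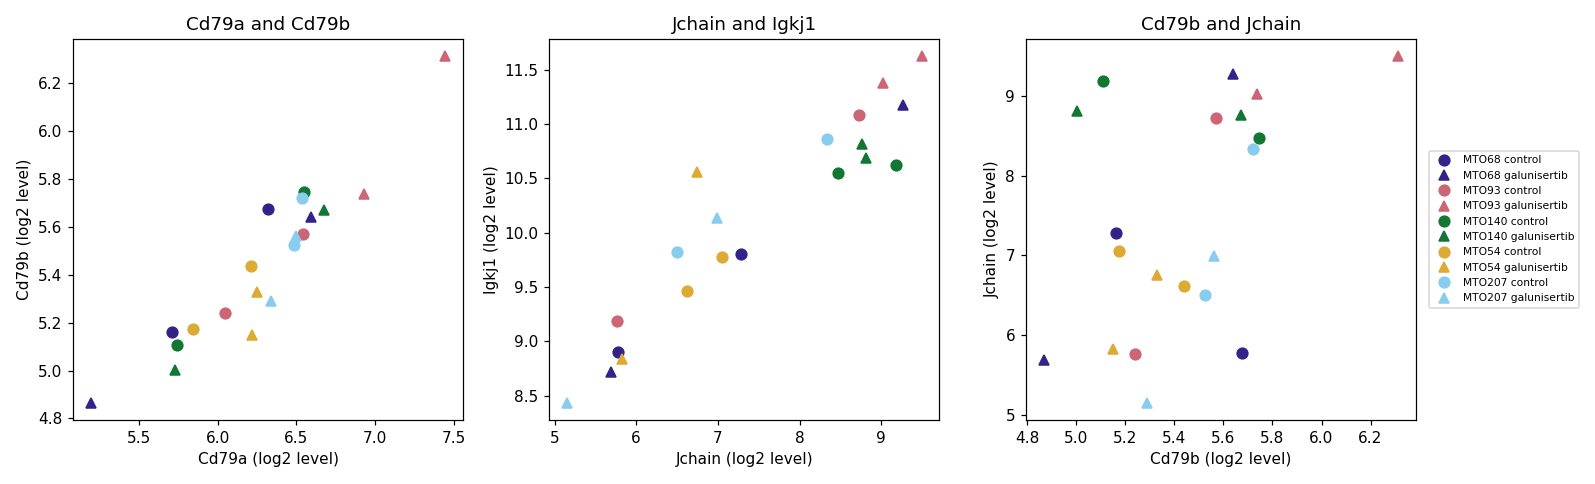
Log2 levels of gene pairs in the 20 tumours: Cd79a against Cd79b (left), Jchain against the kappa light chain gene Igkj1 (middle) and Cd79b against Jchain (right), with colour for the line and circles for control, triangles for galunisertib tumours. The left and middle pairs form a narrow band, with r = 0.94 each over 20 tumours without centring, while the right pair is scattered.

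The correlation with the spread of an array's values passed the threshold for 2 of the genes, for Ms4a1 by r and not by rho. Line-centred Pax5 correlated with the array SD at r = -0.77 and rho = -0.66 over 20 arrays (permutation within lines, adjusted p = 0.013 and 0.046 over 7 genes), and at r = -0.64 without the 2 farthest arrays. Its r was below 0 within each of the 5 lines, from -0.99 in MTO54 to -0.22 in MTO93 (n = 4 each). Ms4a1 gave r = -0.45 (permutation adjusted p = 0.048) and rho = -0.49 (adjusted p = 0.077), and -0.40 without the 2 farthest, with r below 0 in each line. For the other 5 genes r lay between -0.46 and 0.14 and none passed. Of these, Cd79b (r = -0.46) and Cd79a (r = -0.41) lay close to Ms4a1, with r below 0 in each line. With the array SD in the model, the treatment difference over 5 lines was 0.13 for Pax5 (SE 0.08, limma adjusted p = 0.543) and 0.23 for Ms4a1 (adjusted p = 0.373). In MTO93, array SDs were 1.60 and 1.52 in control and 1.55 and 1.54 in treated tumours. They also overlapped between treatments in MTO140 and MTO54. In MTO207 they were 1.46 and 1.46 in control and 1.57 and 1.55 in treated tumours. In MTO68 they were 1.76 and 1.47 in control and 1.82 and 1.81 in treated tumours. Whether array spread had a part in the lower treated means of Pax5, Ms4a1, Cd79a and Cd79b in MTO68 and MTO207 was not tested.

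The genes most like each member, the 3 with the highest r over the 20 tumours without centring, were named as a description. Those of Ms4a1 were Ccr6, a chemokine receptor found on B cells (r = 0.89), Tnfrsf13c, the BAFF receptor (0.88), and Trgv1, a T cell receptor gamma segment (0.88). Cd79a and Cd79b were closest to each other (0.94), and Ccr6 came next for both (0.88 and 0.85). The third gene was Ms4a1 for Cd79a (0.87) and Ikzf3, a lymphoid transcription factor, for Cd79b (0.84). Pou2af1 was closest to the heavy chain variable gene Ighv6-6 (0.94), Slpi (0.94) and the lambda variable gene Iglv1 (0.91). Jchain was closest to the kappa genes Igkj1 (0.94) and Igkv6-15 (0.90) and to Mep1b (0.85). Cxcl13 was closest to Cd37, a tetraspanin of B cells (0.83), the mast cell protease gene Cpa3 (0.81) and Cyfip2 (0.78), and Pax5 to Ccdc83 (0.90), Chil1 (0.89) and Derl3 (0.89).

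Other genes of the same cells were then described by fixed lists. Of 23 further B cell genes tested, 11 had higher and 12 lower means in treated tumours over the 5 lines, with a median of -0.00 and 0 passing. In MTO93 19 of the 23 were higher, with a median of 0.22, in MTO54 21 were higher, with a median of 0.11, and in MTO140 13 were, with a median of 0.06. In MTO68 18 were lower, with a median of -0.21, and in MTO207 20 were lower, with a median of -0.11. The mean level over the 23 genes was between 4.88 and 4.96 in control and between 5.08 and 5.12 in treated MTO54 tumours. In MTO93 it was between 5.01 and 5.22 in control and between 5.31 and 5.43 in treated tumours. Treated tumours were thus higher without overlap in MTO54 and MTO93. In MTO207 they were lower without overlap, between 5.11 and 5.15 against 5.23 and 5.29 in control tumours. The ranges overlapped in MTO68 and MTO140. The share of other gene sets of this size with such separation was not computed. The all-gene medians were 0.02 in MTO54, 0.00 in MTO140, 0.01 in MTO93, 0.04 in MTO68 and -0.03 in MTO207. In MTO93 Cd37 differed by 0.92 (SE 0.34), the complement receptor gene Cr2 by 0.58 (SE 0.29) and Tnfrsf13c by 0.47 (SE 0.17), none past the threshold. Blnk, which encodes an adaptor of B cell receptor signalling, had the largest difference of the list over 5 lines, 0.83 (SE 0.21, limma adjusted p = 0.219), with 0.46 (SE 0.49) in MTO93. Between lines 16 of the 23 passed, against 55.4% of all genes, among them Ly6d, Cd22, Ebf1 and Blnk.

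Of 12 further plasma cell genes tested, 6 were higher and 6 lower over the 5 lines (median 0.00), and 9 were higher in MTO93 (median 0.16). Xbp1, the transcription factor of the secretory programme, differed by 0.19 (SE 0.16) over the 5 lines and by 0.27 (SE 0.30) in MTO93, and Prdm1, which directs plasma cell differentiation, by -0.20 (SE 0.11) and -0.39 (SE 0.25). Epithelial cells also express Xbp1. Between lines 5 of the 12 passed, against 55.4% of all genes, among them Xbp1, Fkbp11, Igha and Prdm1. The immunoglobulin genes found by symbol, a list added after seeing the data, had 14 tested members. All 14 were higher in MTO93 (median 0.83) and 13 were lower in MTO207 (median -0.46), with 0 past limma's threshold in either line. Of all genes, 53.2% had a higher mean in MTO93 and 45.8% in MTO207. In MTO93 the mean level over the 14 was 5.94 and 6.997 in control and 7.35 and 7.37 in treated tumours. The higher control tumour thus lay closer to the treated tumours than to the other control tumour. Igkj1 was at 9.19 and 11.1 in control and 11.6 and 11.4 in treated tumours. Ighm, also of this list, was at 5.79 and 7.03 against 6.75 and 6.82, so these groups overlapped. Igkj1 differed by 1.36 in MTO93 (SE 0.80) and by -1.05 in MTO207 (SE 0.80), while the constant gene of IgA, Igha, differed by 0.05 (SE 0.28) and 0.20 (SE 0.28). Some immunoglobulin segments are near-identical copies, so a probe set may read more than 1 of them.

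**Figure D4:**
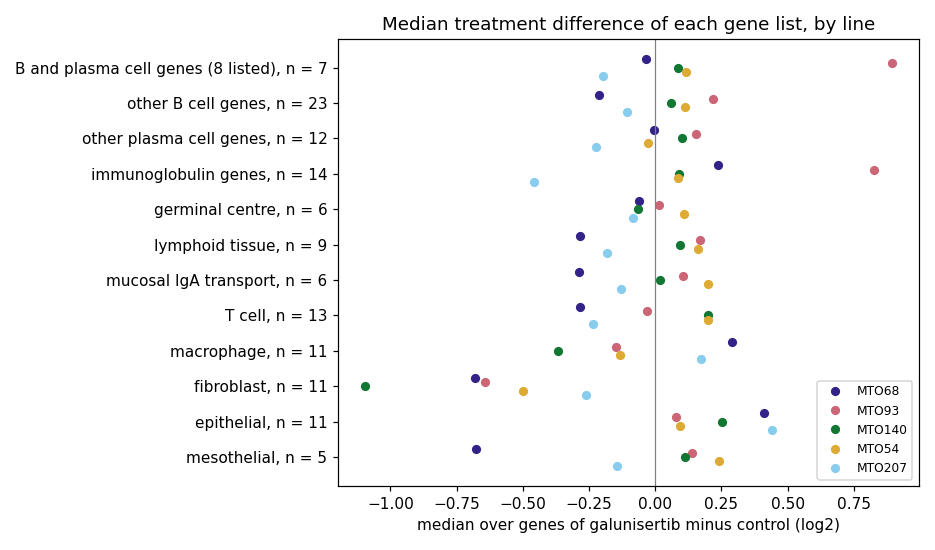
Median treated minus control difference over the tested genes of each list (horizontal axis, log2) in each organoid line (colour). In MTO93 the 7 genes have a median of 0.89 and the immunoglobulin genes 0.83, while the other lists of that line lie between -0.64 and 0.22.

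Lists of the tissue around B cells differed by line in the direction of their medians. Of 9 genes of lymphoid tissue, 8 were higher in MTO93 (median 0.17), 8 higher in MTO54 (median 0.16) and 8 lower in MTO68 (median -0.28). Il7, Ccl19, Tnfsf13b and Glycam1 passed between lines, 4 of 9 against 55.4% of all genes. Tnfsf13b, which encodes the B cell survival factor BAFF, was the only one of the 9 called in a treatment comparison: it fell by 0.80 in MTO68 (limma adjusted p = 0.040), 1 of 9 where 2.01% of all genes were called. That share rests on single tumours, since the number of genes called in MTO68 ranged from 40 to 8323 when 1 tumour was left out, the highest without control tumour 1. The 6 germinal centre genes had a median of 0.01 in MTO93, and Il21 passed between lines, 1 of 6 against 55.4% of all genes. All 6 genes of mucosal IgA transport had higher means there (median 0.11), among them Pigr, the receptor that carries IgA through the epithelium, at 0.56 (SE 0.72). Pigr, Ccl20, Ccr9 and Ccl28 passed between lines, 4 of 6 against 55.4% of all genes.

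Markers of other cells in MTO93 were read beside these values. The mean level over 13 T cell genes was 5.59 and 5.62 in control and 5.58 and 5.62 in treated tumours, with 6 of 13 higher. That over 9 lymphoid tissue genes was between 5.01 and 5.11 in control and between 5.26 and 5.28 in treated tumours. That over 11 fibroblast markers was between 7.90 and 8.12 in control and between 7.23 and 7.35 in treated tumours, with 11 of 11 lower. The 11 macrophage markers had a median difference of -0.15, the 11 epithelial markers 0.08 and the 5 mesothelial markers 0.14. Whether the share of lymphoid tissue, or of fibroblasts, in a fragment had a part in the MTO93 values was not tested.

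Promoters from RefSeq on GRCm38.p6 were read for 5 members, Pax5, Pou2af1, Cd79a, Jchain and Cxcl13. The 250 bases before the start of Cd79a, Jchain and Cxcl13 are shown, 1 gene each for the B cell receptor, the plasma cell product and the chemokine, 5′ to 3′ on the strand of the gene. Capitals mark TATAAA, and lower case letters carry no mark.
Cd79a: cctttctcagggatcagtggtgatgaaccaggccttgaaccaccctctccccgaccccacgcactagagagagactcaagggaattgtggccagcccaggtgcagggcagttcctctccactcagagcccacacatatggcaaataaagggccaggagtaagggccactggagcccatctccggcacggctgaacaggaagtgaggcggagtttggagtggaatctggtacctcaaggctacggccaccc
Jchain: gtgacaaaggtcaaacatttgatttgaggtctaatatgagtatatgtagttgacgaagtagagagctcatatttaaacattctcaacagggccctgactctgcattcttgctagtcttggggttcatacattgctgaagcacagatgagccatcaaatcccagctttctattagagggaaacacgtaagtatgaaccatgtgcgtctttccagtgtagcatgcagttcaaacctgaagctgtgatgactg
Cxcl13: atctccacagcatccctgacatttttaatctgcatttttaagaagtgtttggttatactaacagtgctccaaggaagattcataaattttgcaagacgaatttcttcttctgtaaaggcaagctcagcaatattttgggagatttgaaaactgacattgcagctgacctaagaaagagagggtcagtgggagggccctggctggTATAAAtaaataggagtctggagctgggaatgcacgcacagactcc
They lie at chr7:24897247-24897496 on the plus strand, chr5:88527898-88528147 on the minus strand and chr5:95956689-95956938 on the plus strand. TATAAA was found within 50 bases upstream on the gene strand in Cxcl13 alone of the 5 promoters, starting at -46, and in 2.63% of 32851 promoters. The octamer ATGCAAAT, to which POU2F1 and POU2F2 bind with POU2AF1, was searched on both strands over 300 bases, 250 before and 50 after the start. It was in 0 of the 5 promoters and in 1.74% of all. The core CCCNNGGGA of the B cell factor EBF1 was in 0 of 5 and in 6.56% of all. A missing match says only that these letters are not in this window.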

How the data were processed

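RNA of 20 whole tumour fragments was measured on 1 array each. The submitters' processing notes name RMA and affy, without versions, for the deposited log2 values per probe set. The label LY was read as galunisertib. The platform annotation gave 28898 of 45141 probe sets 1 symbol and 551 several, and 104 were controls; 28689 symbols were updated through the Entrez ID. A gene's probe set of highest mean was used. The 15556 genes above 4.16 on at least 2 arrays were tested.

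In limma 3.58.1 (R 4.3.3; lmFit, then eBayes with a trend), treatment over 5 lines was estimated with line as a fixed block. For every other comparison limma fitted 10 group means with 1 shared spread, and SEs are those of the model. Two-sided p-values were adjusted over the 15556 genes (Benjamini-Hochberg), with a threshold of 0.05. Correlations were tested with 100000 permutations within lines. The scripts were tested on simulated data.

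The members, lists, tests and most alternatives were chosen with earlier results of these data known. Genes were named by rule: the members, the 3 genes most like each, and up to 4 genes of a list that passed a comparison or else the 2 of smallest p. The T cell, macrophage, fibroblast, epithelial and mesothelial lists are given as lists, without the genes this rule names. Cr2, Cd37, Tnfrsf13c, Iglv1 and Igkj1 in MTO93 or as examples were taken after their values were seen. Searches in protein sequences were not run. Plots used matplotlib 3.10.9.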

Additional observations from a re-analysis of the deposited data

How the results depend on the processing

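Of 1811 values of the 7 genes under alternatives, 1772 stayed on their side of the threshold. Any of these 1772 that changed sign moved by less than the SE of the main value, and F tests have no direction. A further 17 passed where the main value did not, and 2 no longer passed. Another 20 crossed 0 and moved by at least that SE without a call, and 0 reversed a call. Over 5 lines none of the 7 passed under any alternative (limma adjusted p from 0.133), and array weights turned MTO68 estimates above 0 for Cd79a (0.59), Cd79b (0.30), Ms4a1 (0.27) and Pax5 (0.32). With array weights, Cd79a and Jchain passed between lines, in a fit that called 12346 of 15556 genes. Of the 17, 9 belong to Pou2af1 and are not used, since it passed the filter through treated tumours alone. The causes were not tested.

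Counts of all genes called moved more. Over 5 lines they were 55 after quantile normalization (2 higher and 53 lower), 116 with array weights, 166 with the array SD as covariate, 10 without the line MTO68 and 2 without MTO54. In MTO68 quantile normalization gave 150 and array weights 172. Array weights gave 20 in MTO93, 5 in MTO140, 13 in MTO54, 223 over the LAKTP lines and 18 for the difference of effects. In MTO140 no filter gave 2, and a stricter filter, median centring and eBayes without trend gave 0, 0 and 0. In MTO54 the probe set of highest variance gave 1. Over the LAKTP lines no filter gave 8, a stricter filter 4, the probe set of highest variance 2, median centring 2, the mean of probe sets 6, quantile normalization 31 and eBayes without trend 0. For the difference of effects a stricter filter gave 6 and eBayes without trend 3. The control tumours alone gave 436 for the level between lines.

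Leaving out each tumour in turn, counts ranged from 0 to 43 over 5 lines, 40 to 8323 in MTO68, 0 to 1 in MTO93, 0 to 26 in MTO140, 0 to 9 in MTO54, 0 to 0 in MTO207, 0 to 1336 over the LAKTP lines, 2 to 2807 for the difference of effects and 6353 to 11257 for the level between lines. The counts of 8323, 1336 and 2807 came without MTO68 control tumour 1, those of 43 and 11257 without MTO68 control tumour 2, and 20 over 5 lines without MTO54 control tumour 2. Where a group kept 1 tumour, that tumour was assumed to vary like the other groups. The correlation of Cd79a and Cd79b was 0.94 without MTO68 control tumour 2, and those of Cd79b with Jchain and Cxcl13 were 0.64 and 0.67.

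No paired analysis was possible because the labels carry no replicate numbers that would pair tumours. The planned correlation of Mzb1 and Jchain and the planned protein search were not run. Dim probe sets limit Pou2af1 and Ms4a1 most.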

Other observations

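In MTO68 galunisertib tumour 2, Igkj1 reached 11.2, Jchain 9.27 and Cd79a 6.59, while in galunisertib tumour 1 they were at 8.72, 5.69 and 5.19. In MTO140 the Igkj1 levels of all 4 tumours lay between 10.6 and 10.8 and Jchain between 8.47 and 9.18, while Cd79b ranged from 5.00 to 5.75. No explanation of these values was tested.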
